A study of Mus musculus with 11 samples.

Results

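Oligodendrocytes cultured from Myrf conditional knockout mice were compared with control oligodendrocytes on 7 of the 11 arrays of the series, 3 of knockout cells and 4 of control cells, chosen by their titles. Myrf, the myelin regulatory factor that the labels call MRF, is a transcription factor made as a membrane protein; its N-terminal part is cleaved off, moves to the nucleus and binds near genes of the myelin programme. Oligodendrocytes descend from progenitors that divide in response to PDGF. After leaving the cell cycle they pass through a premyelinating stage and then make the lipids, membrane proteins and cytoskeleton of the myelin sheath, and Myrf is known for acting at the later of these steps.

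The knockout animals were MRF fl/fl and Olig2 wt/cre, so both copies of Myrf could be deleted in cells that have used the Olig2 promoter. Their littermates served as controls and were MRF wt/fl with Olig2 wt/cre, which means that control cells carried the same Cre and a single floxed copy of Myrf and are not wild type. Cells came from brains at postnatal day 7. Microglia were removed on the lectin BSL1, and the remaining cells were selected with antibody to PDGFRα, expanded in PDGF-AA at 10 ng/ml in medium with 2% B-27, and then kept without PDGF-AA in triiodothyronine (T3), a hormone that drives differentiation, at 40 ng/ml for 4 days. The other 4 arrays hold cultured progenitors kept for 6 days in PDGF-AA at 10 ng/ml. Their titles call them control and give no genotype. They are not part of the reported fit and join it only in an alternative, where their spread enters the error. Their levels are given only as a description. The labels do not say whether replicates came from separate cultures or animals, so p-values measure the spread between these arrays, which may be technical. In bulk RNA of this kind, fewer cells of a type and less RNA per cell cannot be told apart.

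Values are MAS 5.0 signals, a linear measure of probe set brightness that was scaled to the same target on every array, and each gene is read from its brightest probe set. Signals are given in the order of the replicate numbers, 1 to 3 for knockout and 1 to 4 for control. Differences are log2 of knockout minus control with the standard error of the limma fit, and a gene counts as higher or lower when its Benjamini-Hochberg adjusted p over all 17235 probe sets tested is under 0.05. Probe sets were tested when they reached a signal of 200 on at least 3 of the 7 arrays. A signal under 100 is treated as a level with no order, and where the dimmer group holds such signals the fold is given as at least N-fold, with them raised to 100. Fitted log2 differences use the signals as deposited.

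The arrays of a group resembled each other more than those of the other group. Over the probe sets tested, Pearson correlations of log2 signal ran from 0.947 to 0.964 within the knockout group, from 0.931 to 0.969 within the control group and from 0.800 to 0.914 across them. Between 16048 and 17130 probe sets reached a signal of 200 on an array, and the ratio of 5′ to 3′ Gapdh control probe signal, a measure of RNA integrity, was 1.263 to 1.285 on knockout arrays and 1.324 to 1.407 on control arrays. Control array 3 stood apart from the other controls among the genes that differed most, as described at the end, and leaving it out moved no gene list's count of calls by over 1.5 times other than the higher genes of cholesterol synthesis (1 to 0), ion channels (2 to 4) and astrocyte markers (1 to 2). Among the progenitors, array 2 read low for Pdgfra and Mki67 and high for Bmp4 and Nkx2-2, as the values below show, and arrays 1 and 4 had Gapdh ratios of 0.332 and 0.12.

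Of 11 oligodendrocyte lineage markers, 10 read 1873 or more on all 7 arrays, and Gpr37 was dim in the knockout, as given with the late genes. Olig1, a transcription factor of the lineage, read 14358, 12466 and 16212 in the knockout and 16991, 15308, 16793 and 13663 in the control. Sox10, another, read 10611, 9600.2 and 9674 in the knockout and 9138, 7609, 7895 and 8608 in the control. Astrocyte markers were also bright in both groups. Of 18 on the array, 16 reached 200, and their summed signal was 125960 to 139994 in the knockout and 85642 to 117691 in the control, ranges that do not overlap, against 10717 to 16623 in the progenitors. Gfap, the astrocyte intermediate filament, read 16477, 15352 and 16881 in the knockout and 17212, 14658, 15220 and 15886 in the control and differed by 0.05 ± 0.09 on the log2 scale (adjusted p = 0.752). Among the 16 markers tested 1 was higher, S100b, which oligodendrocyte lineage cells also make, by 0.97 (adjusted p = 0.0207), a call that ended without knockout array 1 or 3 and with the progenitor arrays in the fit. With the replicate block 7 of the 16 were higher.

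Smooth muscle, pericyte and fibroblast markers summed to 5126.5 to 8655 in the knockout and 1248 to 3298 in the control, again without overlap. Tagln and Myl9, actin-binding and myosin proteins of smooth muscle, were higher by 2.67 and 1.79 (adjusted p = 0.0348 and 0.0478). The call of Tagln ended without control array 4, without any single knockout array and with the progenitor arrays in the fit, at 2.49 to 2.81. That of Myl9 ended without control array 1 or 4, without any single knockout array, with no filter on dim probe sets, without the trend of variance on signal and with the progenitor arrays in the fit, at 1.62 to 2.02. Acta2, smooth muscle actin, read 1234, 1411 and 1698 against 1096, 691, 298 and 756 and did not pass, at a log2 difference of 1.16 (adjusted p = 0.0738). The other 13 of the 16 markers on the array did not reach the filter. Among them the fibroblast collagens Col1a2 and Col3a1, named after their values were seen, were bright on knockout array 3 alone: Col1a2 read 54.3, 141 and 829 in the knockout and at most 137 in the control, and Col3a1 read 20.5, 167 and 956 in the knockout and at most 137 in the control. The remaining 11, with Col1a1, Dcn, Pdgfrb and Rgs5, read at most 243.0. Neuron markers summed to 1957 to 2208.5 in the knockout and 3324.5 to 3375.5 in the control. Of these 15 markers 7 reached 200 and 5 were tested, 1 of them lower, so the sums include signals under 100. Tubb3 and Dcx overlapped between the groups and did not pass. Control array 3 was the lowest control for Tubb3 and Dcx and the highest for Nefl and Nefm. No microglial marker was tested, and the brightest of those signals was 318, on a control array. These marker sums moved with the groups that rose or fell, and their part in those results was not tested.

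Of the 9515 genes tested, 685 were lower in the knockout (7.2%) and 738 were higher (7.76%), while 3055 genes (32.1%) had no overlap of knockout and control signals. Among the genes tested, those that fell did so by more. At least 4-fold differences numbered 127 among lower genes and 63 among higher ones, and at least 8-fold differences 39 and 10, with signals under 100 raised to 100. The balance also moved with brightness: of 4 equal bins of genes by mean signal, the dimmest held 220 higher and 158 lower and the brightest 134 higher and 204 lower. Over all genes the median log2 difference was 0.04. At an unadjusted p under 0.05 there were 3106 genes.

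The counts depend on the number of arrays. Without control array 3 there were 652 higher and 607 lower genes. With knockout array 1, 2 or 3 left out, which leaves 2 knockout arrays, the higher genes numbered 303, 277 and 392 and the lower genes 482, 426 and 500, and without control array 1 they numbered 498 and 498. With the replicate number as a block, a term for arrays that share a number, 1201 genes were higher and 870 lower. No knockout array shares the number of control array 4, so that array adds nothing to the differences of the blocked fit. When the 4 progenitor arrays joined the fit, so that their spread entered the error, 259 were higher and 329 lower, and all of these were among the genes reported.

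**Figure D1:**
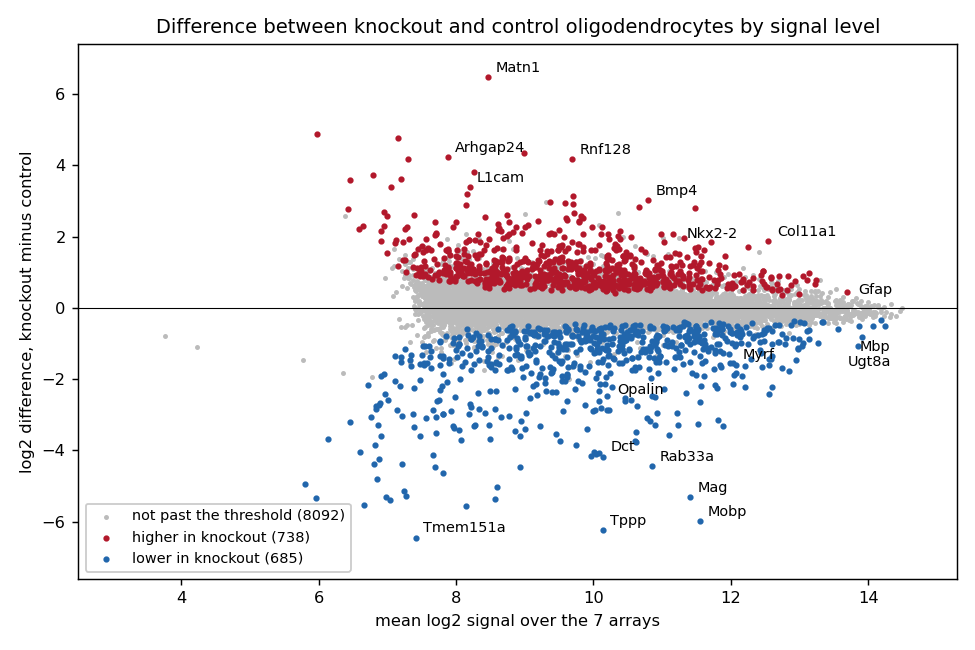
Each point is a gene, with its mean log2 signal over the 7 arrays on the horizontal axis and its log2 difference, knockout minus control, on the vertical axis. The 685 lower genes (blue) reach further from zero than the 738 higher genes (red); Mobp, Tppp and Tmem151a lie lowest among the labelled genes and Matn1 highest.

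Myrf itself was lower but still detected in the knockout. It read 2849, 1904 and 2223 in the knockout and 7374, 6614, 7517 and 6215 in the control, and no knockout array reached a control value. The difference was -1.59 ± 0.15 on the log2 scale, a 3.01-fold fall (adjusted p = 0.000332). The difference was also -1.59 with all 11 arrays in the fit, where it did not pass. The array holds a single tested probe set for Myrf, and its place relative to the deleted part of the gene was not examined, so the remaining signal does not measure how many cells kept an intact copy.

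None of the genes next to Myrf on the chromosome was lower among those tested. Of the 5 protein-coding neighbours on each side in the RefSeq order, 6 were tested. Fads2, a fatty acid desaturase, was higher by 0.77 ± 0.20 (adjusted p = 0.0338), with 7049, 8286 and 7511 in the knockout and 3785, 5272, 3351 and 5959 in the control, and this call ended without control array 1, without any single knockout array, with no filter on dim probe sets, without the trend of variance on signal and with the progenitor arrays in the fit, where the difference was 0.69 to 0.82. Fads1, Fads3, Fen1, Dagla and Sdhaf2 did not pass the threshold, with differences of 0.50, 0.86, -0.11, -0.07 and 0.06; Fads1 passed with the replicate block, at 0.57.

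Many genes for myelin membrane proteins had lower RNA, some of them nearly down to background, while others did not pass the threshold. The lists overlap in a few genes. Of 31 tested genes for myelin membrane and junction proteins, 14 were lower (45.2%) and 2 were higher (6.45%). The shares over all genes tested, 7.2% lower and 7.76% higher, are the measure for this and every other list. The median log2 difference of the list was -0.33 beside 0.04 over all genes. Without control array 3 the count of lower genes was 13, and with the progenitor arrays in the fit it was 7. Large falls and near-equal levels stood side by side in the list.

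Mobp, a small basic protein of compact myelin, was reduced to a few percent of its control signal on the knockout arrays 1 and 2 and further on array 3. It read 903, 684 and 35.3 in the knockout and 20324, 17803, 22066 and 12531 in the control, a difference of -5.99 ± 0.95 (adjusted p = 0.00388). Knockout array 3 was far below the other knockout arrays, and the fall was at least 45.0-fold with it and 22.6-fold without it; without knockout array 1 or 2 it was at least 68.0-fold or 59.2-fold. Mag, the sialic acid-binding glycoprotein on the myelin face next to the axon, read 639, 593 and 95.3 against 14251, 13318, 13226 and 11997. Its difference was -5.32 ± 0.57 (adjusted p = 0.000537), a fall of at least 39.2-fold that was 21.4-fold without knockout array 3. Mal, a raft proteolipid of myelin, read 394, 372 and 304 against 4619.6, 5222, 10038 and 2179 and fell by 3.76 ± 0.42 (adjusted p = 0.000631).

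Mog, the glycoprotein of the outermost lamella, and Gjb1, the gap junction protein connexin 32, lay under 100 on every knockout array. Mog read 68.2, 64.2 and 6.90 in the knockout and 1743, 1256, 5318 and 403 in the control, at least 14.7-fold lower (adjusted p = 0.00603). The control arrays themselves spread widely for this gene, and the bound was 9.59-fold without control array 3 and 22.7-fold without control array 4. Gjb1 read 541, 388, 3380.4 and 197 in the control and was at least 6.12-fold lower (adjusted p = 0.00425), or at least 3.46-fold lower without control array 3. Opalin, a sialylated membrane protein of oligodendrocytes, read 620.4, 598 and 419 against 1984, 2327, 1552 and 2626 and fell by 1.95 ± 0.22 (adjusted p = 0.000610). The calls of Mog and Opalin ended when the progenitor arrays joined the fit.

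The classic early myelin genes differed little. Cnp, the cyclic nucleotide phosphodiesterase that keeps cytoplasmic channels of the sheath open, read 20751, 17642 and 21228 against 26673, 22736, 22019 and 21096, groups that overlap (difference -0.22 ± 0.10, adjusted p = 0.194). Cldn11, which forms the tight junctions between lamellae, read 14266, 10313 and 11397 against 15530, 15209, 14279 and 14702; the groups just failed to overlap and the difference of -0.33 ± 0.11 did not pass (adjusted p = 0.0902), though it did without knockout array 1, at -0.46. Mbp, the basic protein that holds the cytoplasmic faces of compact myelin together, read 17360, 12946 and 17850 against 25195, 22331, 21869 and 20885 and was lower by 0.50 ± 0.12 (adjusted p = 0.0274). That call ended without control array 1 or 2, without knockout array 1 or 2, with no filter on dim probe sets, without the trend of variance on signal and with the progenitor arrays in the fit, where the difference was -0.35 to -0.57. The control signals of Cnp and Mbp lay near the highest value of their arrays, 22057 to 26673. Those of Cldn11 lay well below it. An array can understate a difference near its highest signals, and this was not tested here.

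The list also held 2 genes that rose, a share (6.45%) below that over all genes (7.76%). Lingo1, a Nogo receptor partner known to hold back oligodendrocyte differentiation, read 445, 555 and 439 against 241, 182, 195 and 167 and rose by 1.30 ± 0.20 (adjusted p = 0.00306); its call ended with the progenitor arrays in the fit. Ninj2, an adhesion protein, was higher by 0.87 (adjusted p = 0.0268) and did not pass without control array 4, without any single knockout array, with the replicate block and with the progenitor arrays in the fit, at 0.78 to 0.96.

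**Figure D2:**
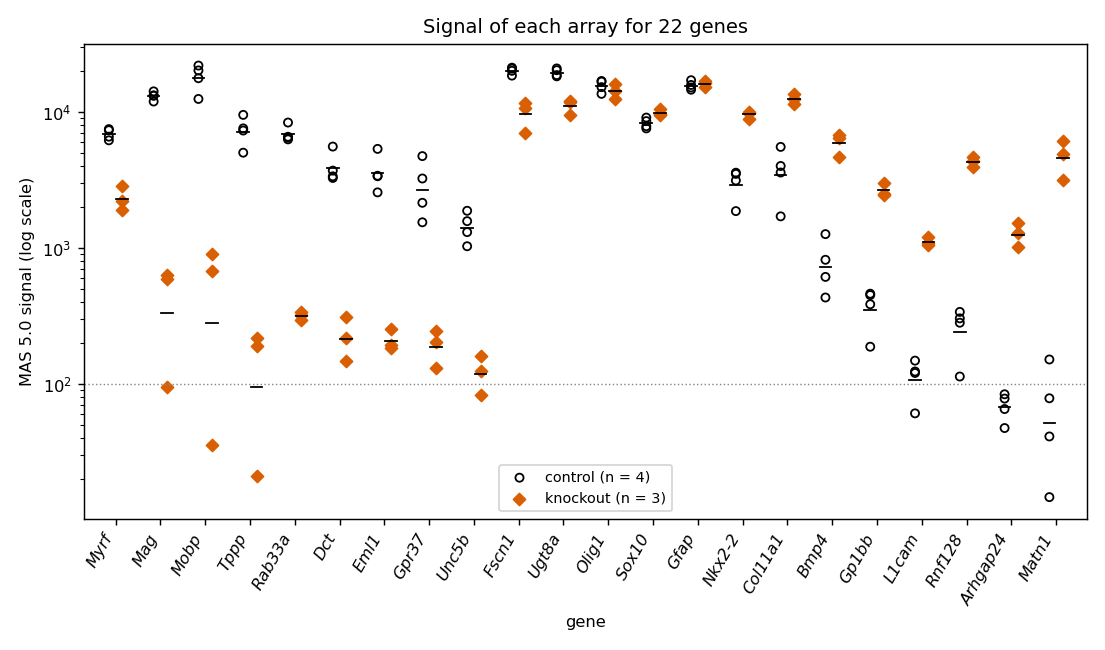
MAS 5.0 signal on a log axis for 22 genes on each of the 7 arrays, with open circles for the 4 control arrays, filled diamonds for the 3 knockout arrays and a bar at each geometric mean; the dotted line marks 100. Mag, Mobp and Tppp are lowest on knockout array 3, Olig1, Sox10 and Gfap stay near the control level, and Matn1, Arhgap24 and Rnf128 rise from control signals at or under 339.

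A short sequence, CTGGCAC or CTGGTAC, has been reported as the site that Myrf binds, and promoters were searched for it on either strand. Windows from 250 bases before to 50 after the start came from RefSeq on the build GRCm38.p6 and were found for 7814 of the genes tested, of which 610 (7.81%) held a match. Among lower genes with a window, 63 of 542 (11.6%) held one, and among those lower at least 4-fold in the fit, 18 of 117 (15.4%). Among higher genes, 51 of 601 (8.49%) did, and of those higher at least 4-fold, 6 of 56 (10.7%). A gene counted when any of its windows held a match. Lower genes had 760 windows for 542 genes, and those lower at least 4-fold 177 for 117. Higher genes had 822 for 601, those higher at least 4-fold 71 for 56, and all genes tested 10133 for 7814. More windows per gene raise such a share. Counted per promoter instead of per gene, the share over all RefSeq promoters was 7.1%. These are descriptions of letters in a short window; Myrf is known to bind at distal enhancers as well, and binding was not measured here.

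Of 40 named genes with the largest differences, 34 had a window and 8 of these held a match: Mag, Mog, Tmem151a, Tmem125, Eml1 and Frmd4b, which fell, and Acan and Slc27a3, which rose. The 5 promoters below, 4 of genes that fell and 1 of a gene that rose, were picked from these 8 after their values were seen, to show where the letters lie; for Mag the window of the first of its 2 starts is printed. The matched letters are in capitals, and GTGCCAG and GTACCAG are the same motifs on the opposite strand. The first base of the match lies 68 bases before the start of Mag, 83 before that of Mog, 110 before that of Tmem151a, at the start of Tmem125 and 14 after the start of Acan. The windows are chr7:30914814-30915113 (minus strand) for Mag, chr17:37023349-37023648 (minus) for Mog, chr19:5085442-5085741 (minus) for Tmem151a, chr4:118543677-118543976 (minus) for Tmem125 and chr7:79052976-79053275 (plus) for Acan.
Mag: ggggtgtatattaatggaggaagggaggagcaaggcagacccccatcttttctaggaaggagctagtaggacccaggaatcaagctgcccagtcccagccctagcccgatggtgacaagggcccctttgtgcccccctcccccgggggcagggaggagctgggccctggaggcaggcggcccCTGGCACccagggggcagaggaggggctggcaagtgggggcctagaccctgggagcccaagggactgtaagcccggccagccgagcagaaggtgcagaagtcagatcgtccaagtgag
Mog: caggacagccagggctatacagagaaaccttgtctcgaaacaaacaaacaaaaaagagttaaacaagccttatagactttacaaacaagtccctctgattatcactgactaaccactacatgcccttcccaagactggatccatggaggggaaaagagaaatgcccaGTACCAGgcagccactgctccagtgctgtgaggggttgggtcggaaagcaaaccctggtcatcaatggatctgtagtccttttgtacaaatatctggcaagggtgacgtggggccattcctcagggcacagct
Tmem151a: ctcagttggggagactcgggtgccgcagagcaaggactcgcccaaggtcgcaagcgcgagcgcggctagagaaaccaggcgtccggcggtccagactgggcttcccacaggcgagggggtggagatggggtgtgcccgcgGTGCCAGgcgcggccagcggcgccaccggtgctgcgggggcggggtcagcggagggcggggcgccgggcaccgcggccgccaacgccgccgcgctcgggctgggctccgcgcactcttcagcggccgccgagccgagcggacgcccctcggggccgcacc
Tmem125: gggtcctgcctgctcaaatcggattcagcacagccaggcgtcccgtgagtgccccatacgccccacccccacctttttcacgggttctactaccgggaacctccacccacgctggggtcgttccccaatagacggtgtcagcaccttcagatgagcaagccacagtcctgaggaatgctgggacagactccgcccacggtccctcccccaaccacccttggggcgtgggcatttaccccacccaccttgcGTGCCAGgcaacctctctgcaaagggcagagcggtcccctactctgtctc
Acan: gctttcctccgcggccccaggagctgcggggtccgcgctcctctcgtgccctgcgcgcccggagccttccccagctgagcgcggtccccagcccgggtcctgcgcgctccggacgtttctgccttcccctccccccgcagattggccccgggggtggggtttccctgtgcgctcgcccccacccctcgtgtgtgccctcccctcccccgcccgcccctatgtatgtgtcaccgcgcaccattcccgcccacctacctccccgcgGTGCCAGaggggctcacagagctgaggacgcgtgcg

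Cytoskeletal genes of the growing sheath were another group with many falls. Of 43 tested genes for proteins of the myelin cytoskeleton and cell processes, 18 were lower (41.9%) and 3 higher (6.98%). Over all genes 7.2% were lower and 7.76% higher. The median of the list was -0.37, and 16 were lower without control array 3. Tppp, which bundles microtubules in oligodendrocyte processes, read 218, 190.3 and 21.0 against 7607, 7337, 9566 and 5042 and was at least 44.8-fold lower (adjusted p = 0.000712). Ermn, an actin-binding protein of mature oligodendrocytes, read 68.4, 67.5 and 20.6 against 2413, 1892, 3432 and 770.1, under 100 on every knockout array and at least 18.6-fold lower (adjusted p = 0.000470). Map7, which loads kinesin onto microtubules, read 166, 200 and 159 against 2229, 1681, 3761 and 1165 and fell by 3.53 ± 0.34 (adjusted p = 0.000332).

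Fscn1, the actin bundler fascin and one of the brightest genes to fall, read 11735, 7075 and 10793 against 20191, 20927, 21286 and 18614 and fell by 1.07 ± 0.16 (adjusted p = 0.00305). Eml1, a microtubule-binding protein outside the list, read 253, 184 and 195 against 3409, 2573, 5376 and 3383, a 17.0-fold fall (-4.09 ± 0.24, adjusted p = 4.33e-05). Plekhh1 also fell, by 3.40 (adjusted p = 0.00888), but its controls read 1606, 829, 5334 and 559, and the fall was 10.6-fold with control array 3 and 6.80-fold without it. The genes that rose were Septin8, a septin (4122, 3848 and 3794 against 1253, 1568, 1172 and 1918, 1.43 ± 0.18, adjusted p = 0.00117), Wasf1, an actin-nucleation regulator (0.84, adjusted p = 0.00267), and the membrane linker Ezr (0.70, adjusted p = 0.0406), whose call ended without control array 1 or 2, without any single knockout array, with no filter on dim probe sets, without the trend of variance on signal and with the progenitor arrays in the fit, at 0.64 to 0.76.

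Rab33a, a small GTPase of vesicle traffic, had the smallest p of all genes named. It read 295, 341 and 320.3 in the knockout and 6600.3, 6316, 8401 and 6510.2 in the control, values far tighter within groups than between them, and fell 21.7-fold (-4.44 ± 0.14, adjusted p = 2.89e-06). Rras2, a Ras family GTPase, read 559, 579 and 381 against 3523, 3127, 3251 and 2469.6 and fell by 2.62 ± 0.19 (adjusted p = 8.89e-05).

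Other GTPase regulators rose. Arhgap24, which turns off Rac, read 1290.3, 1012 and 1531 against 65.4, 78.1, 47.4 and 84.0, under 100 on all control arrays, and was at least 12.6-fold higher (adjusted p = 4.36e-05). Rab40b read 739, 569 and 867 against 240.4, 293, 163 and 249 and rose by 1.63 ± 0.24 (adjusted p = 0.00252). Of 41 tested genes for small GTPases and their regulators, 8 were lower and 5 higher, with a median of 0.04. The 5 became 8 with the replicate block, 2 with the progenitor arrays in the fit, and 3, 2, 3 and 3 without control array 1 and without knockout arrays 1, 2 and 3; the 8 lower genes became 5 without knockout array 2 and 5 with the progenitor arrays. Rac1 and Cdc42, the GTPases that drive the leading edge of oligodendrocyte processes, differed by 0.04 and -0.15 (adjusted p = 0.830 and 0.351).

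Enzymes, receptors and secreted proteins of late oligodendrocytes had the largest share of falls among the lists. Of 50 tested genes, 32 were lower and 1 was higher, with a median log2 difference of -1.38; 30 of 50 were lower without control array 3 and 21 with the progenitor arrays in the fit. Tmem151a, a membrane protein, was under 100 on every knockout array, with 18.5, 10.3 and 12.2, and read 1415, 895, 2012 and 705 in the control, at least 11.6-fold lower (adjusted p = 4.36e-05). Tmem125, another membrane protein, read 387, 219 and 83.2 against 4008, 2679, 5345 and 2395 and fell by 4.16 ± 0.48 (adjusted p = 0.000758), at least 16.8-fold with all arrays and 11.8-fold without knockout array 3. Gpr37, an orphan-type receptor of oligodendrocytes, read 130.3, 246 and 203 against 3255, 2156, 4757 and 1549 and fell by 3.84 ± 0.37 (adjusted p = 0.000332).

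Lpar1, a lysophosphatidic acid receptor, read 943, 728 and 202 against 7042, 4656, 2803 and 5191 (adjusted p = 0.00391), 9.03-fold lower with all arrays and 5.64-fold without knockout array 3. S1pr5, the sphingosine 1-phosphate receptor of oligodendrocytes, was under 100 on all knockout arrays and at least 4.84-fold lower (adjusted p = 0.0103); its control values were 322, 329, 2468 and 209, the bound was 2.81-fold without control array 3, and the call ended with the progenitor arrays in the fit. Adamts4, a secreted protease that cuts proteoglycans, read 1152, 875 and 1067 against 11557, 8895, 12749 and 8154 and fell by 3.31 ± 0.18 (adjusted p = 4.13e-05). Tgfbi, a secreted matrix protein, stayed at or under 60.7 in the knockout and was at least 17.3-fold lower (adjusted p = 0.000337).

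Enzymes outside the myelin programme were among the largest falls. Dct, dopachrome tautomerase, known from pigment cells, read 313, 218 and 147 against 5592, 3720, 3377 and 3285, 18.1-fold lower (-4.18 ± 0.28, adjusted p = 6.48e-05). Ddc, the decarboxylase that makes dopamine and serotonin, read 481, 193 and 490 against 4379, 5831, 2676 and 7387 and fell by 3.73 ± 0.41 (adjusted p = 0.000572). Alox5, which starts leukotriene synthesis, read 75.4, 109.6 and 70.9 against 951, 1104, 1149 and 1117, at least 10.4-fold lower (adjusted p = 4.13e-05). In the other direction, Bche, butyrylcholinesterase, read 2776, 2045 and 4246 against 359, 315, 242 and 416 and rose by 3.15 ± 0.27 (adjusted p = 0.000180), and Cpm, carboxypeptidase M, rose by 1.98 ± 0.18 (adjusted p = 0.000233), though not past the threshold with the progenitor arrays in the fit.

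Further genes with large falls were Frmd4b, a scaffold at cell junctions (220, 229 and 179 against 3226, 2943, 5228 and 2771, -4.04 ± 0.23), Kndc1, a Ras exchange factor (-4.08 ± 0.47), and Pdlim2, an adaptor of the actin cytoskeleton (-3.58 ± 0.41), with adjusted p of 4.13e-05, 0.000735 and 0.000764. Pex5l, a regulator of pacemaker channels, was at least 17.2-fold lower (adjusted p = 0.000381). No alternative ended the call for any of these 4 genes.

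Some enzymes of myelin lipid synthesis fell. Of 32 tested genes for sphingolipid, galactolipid and long-chain fatty acid enzymes, 8 were lower and 1, Fads2, was higher, with a median of -0.19; the 8 became 5, 5 and 4 without control array 1, knockout array 1 and knockout array 2, and 2 with the progenitor arrays in the fit. Ugt8a, which makes galactosylceramide, the main glycolipid of myelin, read 11864, 9467 and 12168 against 20402, 18768, 21014 and 18386 and fell by 0.82 ± 0.11 (adjusted p = 0.00148), a call lost with the progenitor arrays. Cers2, the ceramide synthase for very long chains, read 2834, 2658 and 2944 against 5443, 5098, 7359 and 4629 and fell by 0.98 ± 0.16 (adjusted p = 0.00478). Elovl6, a fatty acid elongase, read 1834, 1925 and 2692 against 5979, 4347, 6391 and 4055 and fell by 1.27 (adjusted p = 0.00443). Scd2, the desaturase that is brightest in this list and did not pass, differed by -0.10 ± 0.09 (adjusted p = 0.476), or by 0.02 after quantile normalization.

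A few cholesterol genes fell as well. Of 27 tested genes for cholesterol synthesis and transport, 6 were lower and 1, the exporter Abcg1, was higher, with a median of -0.24; without knockout array 2, and likewise with the progenitor arrays, 3 were lower. Hsd17b7, a ketoreductase of late sterol synthesis, read 2024, 1338 and 1966 against 5918, 5568, 4957 and 6567 and fell by 1.71 ± 0.17 (adjusted p = 0.000406). Ebp, the sterol isomerase, read 687, 755 and 705 against 2528, 1652, 2380.2 and 1369 and fell by 1.43 ± 0.22 (adjusted p = 0.00347), and Npc2, which carries cholesterol out of lysosomes, fell by 0.87 ± 0.13 (adjusted p = 0.00304). Hmgcs1, which acts near the start of the pathway, read 13898, 12363 and 14464 against 17233, 14363, 14820 and 12982, groups that overlap (-0.13 ± 0.11, or 0.02 after quantile normalization; adjusted p = 0.478). Abcg1 rose by 0.67 (adjusted p = 0.0383), a call that ended without any single control array, without knockout array 2 or 3, with no filter on dim probe sets, after quantile normalization and with the progenitor arrays in the fit, at 0.56 to 0.73.

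**Figure D3:**
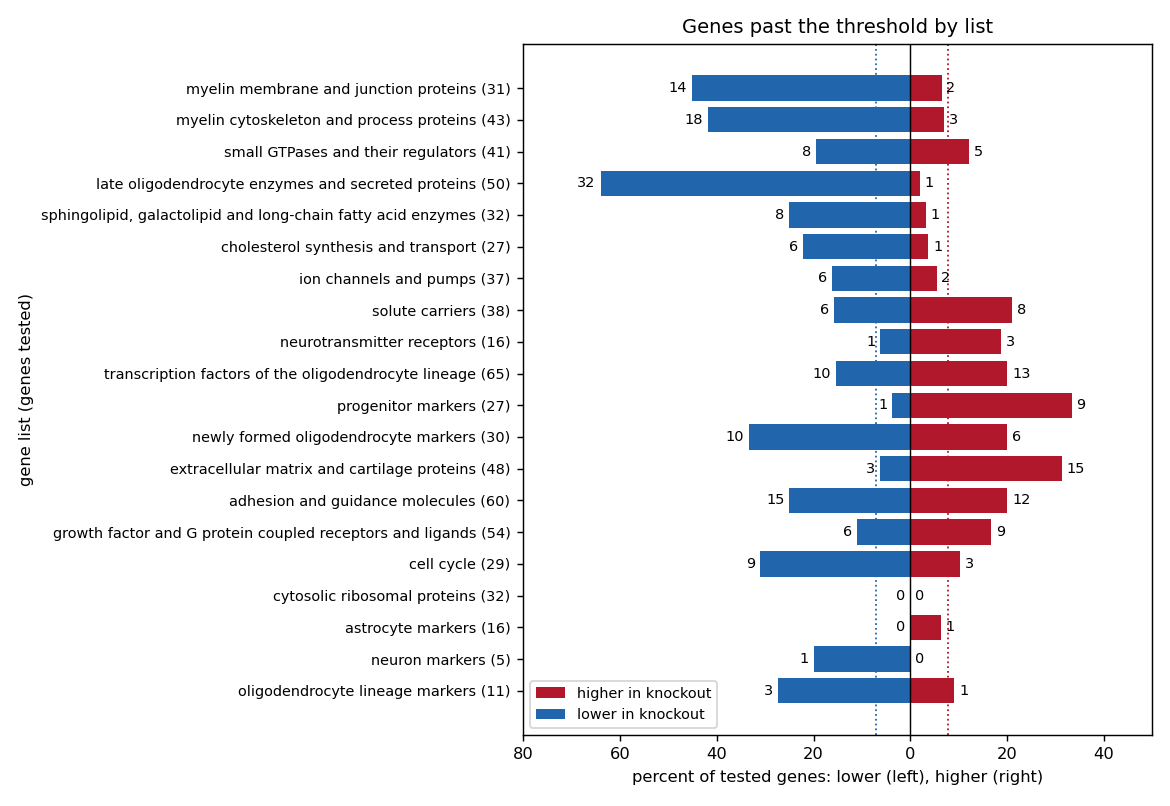
Percent of the tested genes of each list drawn that were lower (blue, left) or higher (red, right) in the knockout. Counts stand beside the bars and the number tested in parentheses. Dotted lines mark the shares over all 9515 genes, 7.2% lower and 7.76% higher. The microglial, endothelial, Schwann cell, ependymal and smooth muscle and fibroblast lists, with at most 3 genes tested, are not drawn. The last of these had 2 of 3 higher. Among the lists drawn, late enzymes and secreted proteins have the longest bar to the left, with 32 of 50 lower. Progenitor markers and extracellular matrix proteins have the longest to the right, with 9 of 27 and 15 of 48 higher.

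Transcription factors of the lineage moved both ways. Of 65 tested, 13 were higher and 10 lower, with a median of 0.20. The 13 became 7, 4 and 8 without knockout arrays 1, 2 and 3, 22 with the replicate block and 1 with the progenitor arrays in the fit, which left 4 lower. Olig1 differed by -0.13 ± 0.12 (adjusted p = 0.476) and Sox10 by 0.26 ± 0.10 (adjusted p = 0.115). After quantile normalization the difference of Olig1 was 0.00 and Sox10 passed, at 0.37. Olig2, a copy of which carries Cre in both groups, read 9170.4, 8011 and 8894 against 7283, 6097, 7081 and 6848 and did not pass (0.35 ± 0.10, adjusted p = 0.0561), while it did with 1 probe set per gene in the fit, after quantile normalization and with the replicate block, at 0.35 to 0.43.

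Nkx2-2, a homeodomain factor of premyelinating cells that normally declines as myelin genes come on, read 9912, 10129 and 8890.1 in the knockout and 3590.1, 3520, 1873 and 3148 in the control. It rose by 1.71 ± 0.22, or 3.28-fold (adjusted p = 0.00126), past the threshold in each fit except that with the progenitor arrays. The progenitors read 2873, 12128, 3237 and 2735. Eya2, a phosphatase and transcriptional co-activator, was at or under 36.9 on every control array and read 521, 513 and 308 in the knockout, at least 4.35-fold higher (adjusted p = 0.00318). Sox5, a factor of the progenitor stage, rose by 1.76 ± 0.24 (adjusted p = 0.00177) and Gli2, a mediator of hedgehog signals, by 1.61 ± 0.32 (adjusted p = 0.0111). The call of Sox5 ended with the progenitor arrays in the fit, and that of Gli2 without knockout array 2 and with the progenitor arrays in the fit, at 1.42 to 1.61. In the progenitors here Sox5 read 114, 405, 315 and 44.8, below every knockout array.

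St18, a zinc finger protein of the Myt1 family, was at or under 40.0 in the knockout and read 669.8, 741, 872 and 684 in the control, at least 7.38-fold lower (adjusted p = 0.000199). Pou3f1, the POU factor Oct6, read 401, 349 and 293 against 1594, 1970.3, 1884 and 1346 and fell by 2.28 ± 0.18 (adjusted p = 0.000130). Creb5, a CREB family factor, was at or under 54.5 in the knockout and at least 2.65-fold lower (adjusted p = 0.00543). The calls of Pou3f1 and Creb5 ended with the progenitor arrays. In the progenitors Pou3f1 read 5281, 580, 4224 and 6710 and Creb5 816, 56.8, 555 and 761. Zfp536 read 978, 263 and 227 against 1906, 1380, 1673 and 1546, with knockout array 1 well above the other knockout arrays, and fell by 2.06 ± 0.44 (adjusted p = 0.0158); the fall was 4.17-fold with all arrays and 6.61-fold without knockout array 1, and it did not pass without knockout array 2 or 3, at -1.67 to -1.78.

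Among progenitor markers more genes were higher than lower, though the best known of them was not past the threshold. Of 27 tested, 9 were higher and 1 was lower, with a median of 0.77; 16 were higher with the replicate block and 4 with the progenitor arrays in the fit. Vcan, the proteoglycan versican, read 2474, 2002 and 3940.4 against 487, 811, 631 and 682 and rose by 2.07 ± 0.25 (adjusted p = 0.000989). Lims2, a focal adhesion adaptor, read 2383, 2274 and 3808 against 547, 582, 442 and 729 and rose by 2.28 ± 0.23 (adjusted p = 0.000394). Gpr17, a receptor of premyelinating cells, read 12706, 10016 and 13929 against 6391, 6537, 5442 and 7661 and rose by 0.91 ± 0.15 (adjusted p = 0.00478), not past the threshold with the progenitor arrays.

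Pdgfra, the receptor used to purify the progenitors, read 1634, 1665 and 1316 in the knockout, 1742, 3532, 3118 and 2339 in the control and 13500, 6309, 19102 and 16957 in the progenitors. Every array of both oligodendrocyte groups thus lay below every progenitor array, and progenitor array 2 was the nearest to them. The difference between knockout and control was -0.76 ± 0.24 (adjusted p = 0.0655), downward and not past the threshold. It was past the threshold without control array 1, at -0.95. Dcc, the netrin receptor, was the listed progenitor gene that fell, with 224, 183 and 172 against 719.9, 492, 813 and 568 (-1.73 ± 0.21, adjusted p = 0.000996).

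Markers of newly formed oligodendrocytes split, with 6 of 30 higher and 10 lower and a median of -0.17; with the progenitor arrays in the fit 2 were higher. Bmp4, a growth factor that premyelinating cells make and that holds back differentiation, read 4679, 6438 and 6835 against 614, 821, 433 and 1268 and rose 8.14-fold (3.03 ± 0.33, adjusted p = 0.000550). The progenitors read 10.5, 3614, 121 and 23.5. Mycl, a Myc family factor, read 1473, 1526 and 1596 against 418, 296, 127 and 412 and rose by 2.43 ± 0.38 (adjusted p = 0.00341). Both calls ended with the progenitor arrays in the fit. Among those that fell, Cnksr3, a scaffold of kinase signalling, read 1225, 821 and 1173 against 5884, 6113, 6476 and 7992 (-2.64 ± 0.18, adjusted p = 6.52e-05), and the non-coding transcript 9630013A20Rik read 1209, 1002 and 914 against 10642, 9104, 9532 and 7899 (-3.16 ± 0.15, adjusted p = 3.32e-05). Cemip2, a cell surface hyaluronidase, fell by 2.90 ± 0.33 (adjusted p = 0.000754).

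Some genes for matrix proteins best known from cartilage rose, and others did not pass. Of 48 tested genes for extracellular matrix and cartilage proteins, 15 were higher (31.25%) and 3 lower (6.25%), beside 7.76% and 7.2% over all genes. The median was 0.78, or 0.77 with signals under 100 raised to 100. Without control array 3 there were 14 higher, without knockout arrays 1, 2 and 3 there were 6, 5 and 7, and with the replicate block 23; with the progenitor arrays 1 was lower. The summed astrocyte markers and the summed smooth muscle and fibroblast markers were higher in the knockout arrays, with Col1a2 and Col3a1 bright on knockout array 3, and their part was not tested.

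Matn1, the cartilage matrix protein matrilin 1, had the largest rise of any gene named. It read 4953, 6102 and 3192 in the knockout and 41.1, 152, 14.7 and 78.5 in the control, with 3 of 4 control arrays under 100, and was at least 41.3-fold higher (adjusted p = 0.000454). The progenitors read 3.00, 52.2, 19.6 and 14.8, so it was not bright in them either. Acan, aggrecan, read 913, 511 and 496 against 107, 78.0, 15.5 and 47.7 and was at least 6.03-fold higher (adjusted p = 0.00530). Chodl, chondrolectin, was under 100 in all controls and read 1396, 1567 and 379.7 in the knockout, at least 9.40-fold higher (adjusted p = 0.00142) and at least 14.8-fold without knockout array 3.

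Several collagens of cartilage were among the genes that rose. Col11a1 read 12502, 11425 and 13731 against 3601, 4023, 1714 and 5559.8 and rose by 1.87 ± 0.33 (adjusted p = 0.00665). Col9a1 read 9824, 7757 and 8491 against 1337, 2299, 351 and 2179 (adjusted p = 0.0125), 6.98-fold higher with all arrays and 4.59-fold without control array 3, and did not pass without knockout array 1 or 2, at log2 differences of 2.71 to 2.88. Col2a1 read 2615, 2700 and 3263 against 447, 285, 8.20 and 364 (adjusted p = 0.0441). Its control array 3 fell far below the other 3, the rise was at least 10.9-fold with that array and 7.92-fold without it, and the call ended without control array 2, without any single knockout array, with no filter on dim probe sets and without the trend of variance on signal, at log2 differences of 4.25 to 4.69. In the progenitors Col2a1 was at or under 10.1 on all 4 arrays. Col11a1 was bright there, at 7782, 13614, 15596 and 5604, and Col9a1 read 1117, 3911, 971 and 1001.5.

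The 3 matrix genes that fell, Adamts1, Adamts4 and Adamts9, are secreted proteases of a family that cuts aggrecan and versican, of which Adamts5, named after its value was seen, did not pass (0.01, adjusted p = 0.985). Adamts1 read 787, 691 and 748 against 3352, 1485, 2878 and 1510.4 and fell by 1.54 ± 0.30 (adjusted p = 0.00970), and Adamts9 fell by 1.13 (adjusted p = 0.0138), beside the fall of Adamts4 given above. Adamts1 did not pass with the progenitor arrays in the fit, and Adamts9 did not pass without knockout array 2 and with the progenitor arrays in the fit, at -1.11 to -1.13.

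Among adhesion and guidance molecules, 15 of 60 were lower and 12 higher, with a median of 0.20. The 12 became 6 and 3 without knockout arrays 1 and 2, and with the progenitor arrays 5 were higher and 7 lower. L1cam, an adhesion protein best known from axons, read 1097, 1053 and 1212 against 124, 149, 60.8 and 121 and rose at least 9.17-fold (3.38 ± 0.29, adjusted p = 0.000205). Cdh13, a cadherin anchored by lipid, and Pcdh7, a protocadherin, rose by 1.37 and 1.33 (adjusted p = 0.0108 and 0.0101), calls that ended with the progenitor arrays in the fit and, for Cdh13, also without knockout array 2, at 1.28 to 1.37.

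Guidance genes with large falls were Efnb3, an ephrin ligand, with 189, 232 and 105 against 2633, 1972, 3363 and 1381 (-3.74 ± 0.34, adjusted p = 0.000281), and Unc5b, a netrin receptor, with 125, 160.3 and 82.5 against 1579.5, 1312, 1883 and 1033 (-3.58 ± 0.27, adjusted p = 0.000101). Slit2, a repellent ligand of the Robo receptors, was at or under 72.2 in the knockout and read 477, 569.9, 759 and 606 in the control, at least 5.95-fold lower (adjusted p = 0.000373). Ephb1, an ephrin receptor, read 382, 390 and 373 against 1904, 2244, 2570.2 and 2769 and fell by 2.62 ± 0.16 (adjusted p = 4.33e-05), past the threshold except with the progenitor arrays.

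Of 54 tested growth factor and G protein coupled receptors and their ligands, 9 were higher and 6 lower, with a median of 0.49. The 9 became 5 without knockout array 1, 20 with the replicate block and 0 with the progenitor arrays, which left 2 lower. Beside Bmp4, Vegfa, the vascular growth factor, read 923, 679 and 682 against 356, 189.7, 249 and 409.7 and rose by 1.39 ± 0.27 (adjusted p = 0.0109), a call lost without knockout array 1 and with the progenitor arrays in the fit, at 1.24 to 1.39. Erbb3, a neuregulin receptor that Schwann cells also use, read 1911, 1569 and 1694 against 5539.5, 3547, 5581 and 2510.4 and was lower by 1.24 (adjusted p = 0.0167); its call ended without knockout array 2 or 3 and with the progenitor arrays in the fit, at -1.18 to -1.24. Calcrl, the shared receptor subunit for adrenomedullin and calcitonin gene-related peptide, read 896, 1155 and 665 against 103, 156, 79.7 and 162 and rose by 2.88 ± 0.30 (adjusted p = 0.000494); in the progenitors it read 1992, 1572, 1649 and 2944.

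Among the subunits of the AMPA class of glutamate receptors, 2 of 4 rose. Gria3 read 1614, 1088 and 1070.2 against 293, 406, 371 and 389 (1.77 ± 0.19, adjusted p = 0.000597) and Gria4 read 2599.5, 2114 and 2637 against 746, 791, 635 and 905 (1.68 ± 0.16, adjusted p = 0.000332), and the kainate subunit Grik5 rose by 1.30 ± 0.23 (adjusted p = 0.00667). Gria1 and Gria2, named after their values were seen, did not pass, at 1.12 and 0.00 (adjusted p = 0.143 and 0.996). Grm7, a metabotropic receptor, was lower by at least 5.16-fold (adjusted p = 0.00576). Of 16 neurotransmitter receptors tested, Gria3, Gria4 and Grik5 were higher (18.75%) and Grm7 was the 1 lower (6.25%), beside 7.76% and 7.2% over all genes. The median was 0.63, and 6 were higher with the replicate block. The calls of Grik5 and Grm7 ended with the progenitor arrays.

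Among ion channels and pumps 6 of 37 were lower (16.2%) and 2 higher (5.4%), beside 7.2% and 7.76% over all genes. The median was -0.05. With the replicate block 6 were higher, and without control array 3 there were 4. Cacnb4, a calcium channel subunit, read 373, 477 and 474 against 2483, 2037, 3026 and 2325 and fell by 2.48 ± 0.17 (adjusted p = 7.78e-05). Atp10b and Atp8a1, which flip lipids across membranes, were lower, the first at least 7.27-fold (adjusted p = 0.000171) and the second by 1.74 ± 0.33 on the log2 scale (adjusted p = 0.0101). Ano4, an anoctamin, was at or under 31.2 in the knockout and at least 6.56-fold lower (adjusted p = 0.000555). Nalcn, a sodium leak channel, rose by 1.13 ± 0.19 (adjusted p = 0.00557), and Kcna1, a potassium channel, overlapped between groups (0.15, adjusted p = 0.572).

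Solute carriers moved both ways, with 8 of 38 higher and 6 lower and a median of 0.06. The 8 became 3, 2 and 4 without knockout arrays 1, 2 and 3, 13 with the replicate block and 3 with the progenitor arrays, which also left 3 lower. Slc24a2, a sodium, calcium and potassium exchanger, was under 100 on every knockout array and read 863, 946, 835 and 535 in the control, at least 7.77-fold lower (adjusted p = 4.80e-05). Slc45a3 was lower by at least 4.14-fold (adjusted p = 0.000359). Slc27a3, an acyl-CoA synthetase, read 314, 924 and 386 against 75.4, 65.1, 29.2 and 12.3 and was at least 4.82-fold higher (adjusted p = 0.00717), and Slc16a3, a lactate exporter, at least 2.58-fold higher (adjusted p = 0.00356).

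Other large rises fell outside the lists. Rnf128, a membrane ubiquitin ligase, read 4411, 3948 and 4656 against 339, 304, 114 and 283 and rose 18.0-fold (4.17 ± 0.34, adjusted p = 0.000159). Gp1bb, a subunit of the platelet receptor for von Willebrand factor, read 2507, 2472 and 3025 against 386, 451, 188 and 462 (2.92 ± 0.30, adjusted p = 0.000429). Edil3, a secreted integrin ligand, read 2716, 2517 and 1389.8 against 191, 280, 556 and 188 (2.95 ± 0.39, adjusted p = 0.00158). In the progenitors Rnf128 read 100.2, 179, 169 and 88.2 and Edil3 93.5, 178, 121 and 108, below every knockout array. Arhgap20 rose by 2.95 ± 0.45 (adjusted p = 0.00339), and Plekhd1 was at least 8.27-fold higher (adjusted p = 0.00148).

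Cell cycle genes were more often lower than higher. Of 29 tested, 9 were lower and 3 higher, with a median of -1.12. Mki67, which marks dividing cells, read 116, 63.1 and 111 in the knockout, 425, 222, 749 and 451 in the control and 9456, 2615, 11836 and 15832 in the progenitors, and was at least 3.88-fold lower in knockout than in control (adjusted p = 0.00808). The list's count rests on few arrays: 4, 16 and 4 genes were lower without control arrays 1, 2 and 4, and 2 without each knockout array, 14 with the replicate block, 5 with a filter at 500 and 1 with the progenitor arrays. The 3 higher genes became 1 without control array 2 or 4, without knockout array 1 or 2, and with the progenitor arrays. Cdkn1c, the inhibitor p57 that holds cells out of the cycle, read 4008, 4072 and 7525 against 461, 835, 483 and 1303 and rose 7.08-fold (2.82 ± 0.38, adjusted p = 0.00169), a call lost with the progenitor arrays in the fit. Cdkn1a, the related inhibitor p21, overlapped between the groups (-0.25, adjusted p = 0.508).

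Cytosolic ribosomal proteins gave no call in the limma fit, 0 of 32 in either direction, with a median of -0.24, or -0.13 after quantile normalization; with the replicate block 14 were lower. At an unadjusted p under 0.05 the count was 11 of 32, a share near that over all genes, 3106 of 9515. Rps29 and Rpl38 differed by -0.18 ± 0.08 and -0.11 ± 0.09 (adjusted p = 0.153 and 0.425), and quantile normalization turned that of Rpl38 to 0.02.

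The arrays of a group were not equal among the genes that differed most. Over the 152 genes lower at least 4-fold in the fit, the median gene stood at 14.5%, 13.6% and 10.9% of the control geometric mean on knockout arrays 1, 2 and 3, and array 3 was the lowest of the 3 for 96 genes, against 3258 of all 9515 genes. Among controls, array 3 was the highest for 99 of these genes, with a median of 134%. Over the 74 genes higher at least 4-fold, the medians were 523%, 539% and 575% on the knockout arrays, while control array 3 was the lowest control for 60 genes, with a median of 58.7%. Over all 9515 genes control array 3 was the lowest of the 4 for 3299 and the highest for 2978, so its lead in these sets exceeds its share overall. These genes were chosen by the same contrast, so the levels describe the arrays and test nothing. Ranks and percents here use the deposited signals, also those under 100, which are treated as having no order. The geometric mean of the dimmer group was under 100 for 77 of all lower genes and 26 of all higher ones. The counts of lowest arrays therefore include ranks among such signals.

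**Figure D4:**
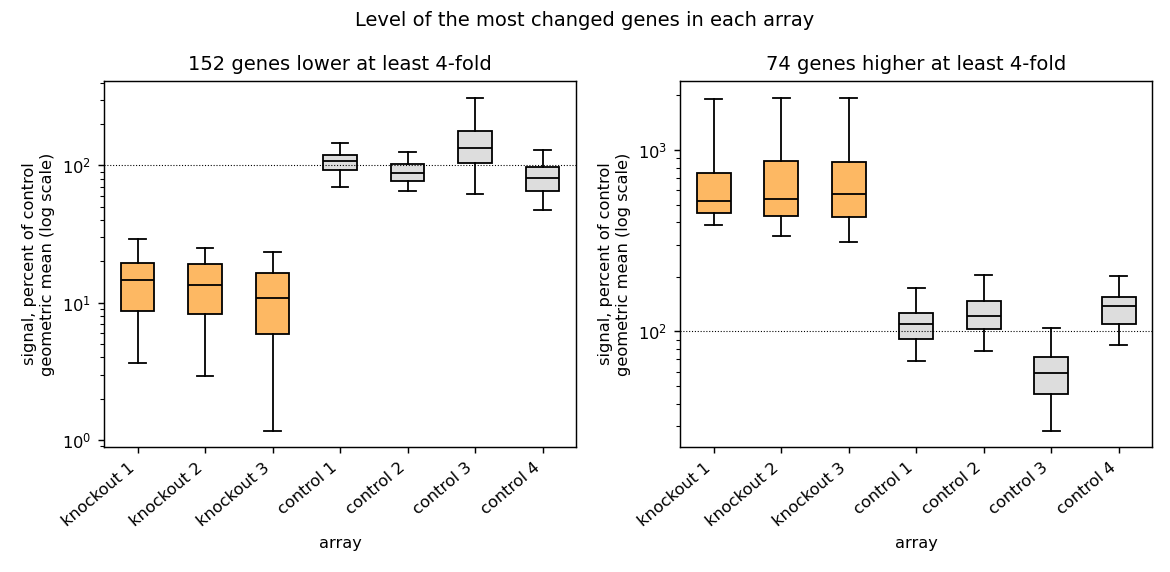
Signal as a percent of the control geometric mean, on a log axis, for the 152 genes lower at least 4-fold (left) and the 74 higher at least 4-fold (right), on each array; boxes span the quartiles with the median, whiskers the 5th to 95th percentile. Control array 3 is the highest control on the left (median 134%) and the lowest on the right (58.7%), and knockout array 3 is the lowest knockout on the left (10.9%). Signals under 100, treated as having no order, enter as deposited.

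Calls in opposite directions from probe sets of the same gene were few. Of 4103 genes with several probe sets tested, 846 had calls in a single direction, 334 of them by every probe set, so that in the others at least 1 probe set did not pass, and 4 had calls in both. The 4 probe sets of Mobp fell by 5.70 to 6.00 on the log2 scale. Mbp had 8: 4 were lower, by 0.33, 0.50, 0.60 and 1.12, 3 did not pass, and a dim probe set, with signals of 425 to 1622, was higher by 1.04 (adjusted p = 0.0337). The other genes with opposed calls were Cyfip2, Elavl1 and Map6. In each a dim probe set was lower, by 0.86, 1.01 and 1.11, and a brighter one was higher, by 0.83, 0.76 and 0.70. Of the 3 probe sets of Sox10, 1 was higher, by 0.73 (adjusted p = 0.0493), and 1 of the 3 of Cnp was lower, by 0.38 (adjusted p = 0.0303), so for both genes the call depends on the probe set read.

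**Figure D5:**
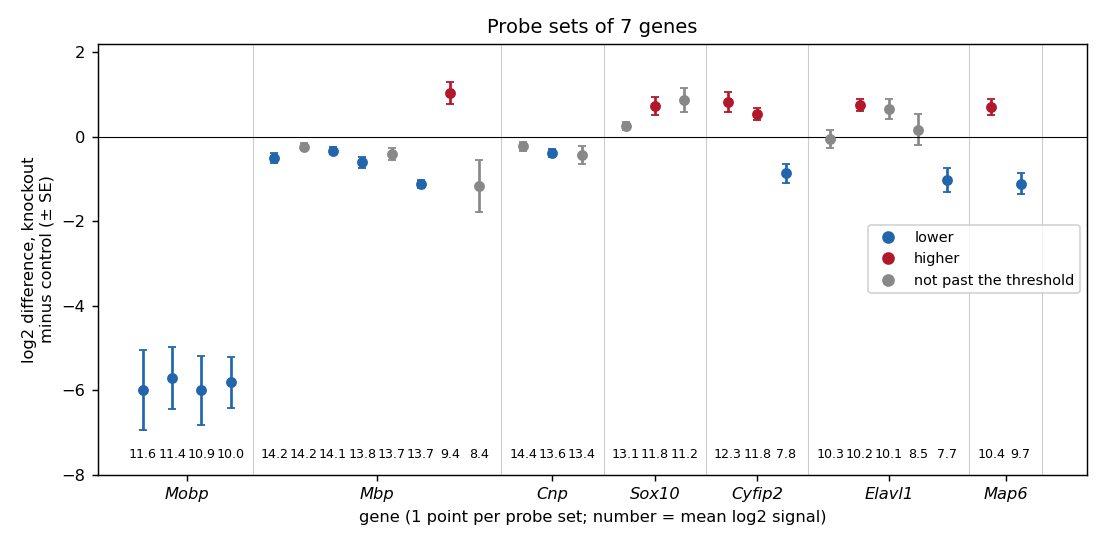
Log2 difference, knockout minus control, with its standard error for each tested probe set of 7 genes, ordered by mean log2 signal, which is printed under each point; blue is lower, red higher and grey not past the threshold. The 4 probe sets of Mobp agree near -6, while Mbp, Cyfip2, Elavl1 and Map6 each hold a probe set on the other side of zero.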

How the data were processed

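RNA was hybridised to Affymetrix Mouse Genome 430 2.0 arrays. The deposited values are signal intensities computed by the authors with the MAS 5.0 algorithm in GCOS 1.3, per the submitters' processing notes, and the trimmed mean was 500.0 on every array. Such scaling makes array means equal, and 7 arrays limit how precise a difference can be. Of 45101 probe sets, 64 controls were left out; 34958 carry 1 gene symbol, 932 several and 9211 none in the annotation used here, and symbols were updated through Entrez IDs for 34754.

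Log2 of the deposited intensity (pseudocount 0, lowest value 0.1) was fitted on the 7 oligodendrocyte arrays with limma 3.58.1 in R 4.3.3 (lmFit, eBayes with a variance trend), checked on simulated data, and adjusted by Benjamini-Hochberg over 17235 probe sets. Of several probe sets, the brightest on average over the 7 arrays stands for the gene. The groups come from the array titles.

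The gene lists and members were chosen with earlier results of these data known. Named genes are a panel of lineage genes, the 12 largest falls and 12 largest rises without overlap and with a dimmer mean of at least 100, the 8 brightest on each side with a dimmer mean under 100, up to 4 lower, 4 higher and 2 brightest uncalled genes of each list, the 8 brightest called on each side, genes with opposed probe sets, and neighbours of Myrf.

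Knockout and control arrays share replicate numbers. Deviations from the group means correlated at 0.18, 0.25 and 0.18 for numbers 1, 2 and 3. Knockout 1 correlated more with control 2 (0.27) and knockout 3 more with control 4 (0.40). The labels state no pairing, and these values do not settle whether equal numbers were paired. The unblocked fit was kept. Alternatives were 2 pseudocounts, 2 filters, quantile normalization, 1 probe set per gene, no variance trend, the replicate block, all 11 arrays, and each array left out.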

Additional observations from a re-analysis of the deposited data

Results flagged for a closer look

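In the group of 4 control arrays, 126 genes with values in the text were examined for a single array far from the others, a gap that chance gives in about 1 in 20 groups. It was found for 7 genes, a total near what that rate gives for 126 groups, and 6 of the 7 were on control array 3. Control array 3 was the highest for S1pr5, at 2468 with the next array at 329, for Gjb1, at 3380.4 with the next at 541, for Ano4, at 1642 with the next at 567, for Kndc1, at 7580.2 with the next at 3355, and for Rab33a, at 8401 with the next at 6600.3. It was the lowest for Ezr, at 1106 with the next at 1749. Control array 2 was the highest for Abcg1, at 413 with the next at 352.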

How the results depend on the processing

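The direction of every named gene with a call was kept in each of the 16 alternatives that tested it, and of 142 such genes 74 kept the call throughout. The genes higher in the knockout, 738 as reported, numbered 259 with all 11 arrays fitted and 1201 with the replicate block, of which 700 were among those reported; the genes lower, 685 as reported, numbered 329 and 870, with 655 of the 870 shared. Leaving out each array in turn gave 277 to 760 higher and 426 to 630 lower genes, and fewer arrays were then fitted. Other settings gave 585 to 823 higher and 577 to 741 lower genes. The difference of Myrf was -1.46 to -1.75 with an array left out and -1.59 with all 11 arrays, where its adjusted p was 0.169, against 0.000236 to 0.00223 in the other alternatives. Among named genes with a call, 59 lost it with all 11 arrays, where the progenitor spread enters the error, and 30, 38 and 26 without knockout array 1, 2 and 3. The replicate block ended the call of Ninj2 and made calls of Fads1, Ncan, Olig2, Pcna and Sparc; it changed no other call among the named genes. A signal under 100 carries no order, so folds there are bounds, while fitted log2 differences use the deposited signals.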
